A study of Saccharomyces cerevisiae with 17 samples.

Results

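Of 5797 gene identifiers with RNA 5′ end counts in budding yeast (Saccharomyces cerevisiae), 188 have a tandem upstream neighbour and carry at least 10 counts in each of 3 count tables. The neighbour was found from the systematic names, which order genes along a chromosome and end in W or C for the strand: an identifier was tandem when the next name on its 5′ side ended in the same letter. Names with a hyphen suffix were left out of that order, and 2657 of 5503 plain names had a tandem neighbour. The 188 members were chosen by their counts, so their levels are a description and are not tested. The proposal behind the choice was that counts at such places could come from noncoding RNA made upstream of a gene.

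All libraries came from wild-type BY4741 cells in rich medium (YPD). This haploid MATa strain carries the alleles his3, leu2, met15 and ura3, all 4 of them deletions, in every group. SMORE-seq joins an adapter to the 5′ ends of RNA and thereby counts where RNAs begin. The first group was poly(A)-selected RNA treated with calf intestinal phosphatase (CIP) and then tobacco acid pyrophosphatase (TAP), as 1 library. CIP removes the phosphate from uncapped 5′ ends, and TAP opens the cap so that a capped end can be ligated. The second group was poly(A)-selected RNA with TAP alone, again 1 library. The third was RNA depleted of ribosomal RNA, with 3 samples in 1 deposited table and no enzyme named in the labels. The tables held 1097457, 864536 and 2821480 counts for CIP/TAP, TAP and ribo depletion. No group had replicate values, so differences between tables have no replicate check, and intervals cover counting error only. Counts came from whole cultures, so fewer cells with an RNA and less RNA per cell cannot be told apart.

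In yeast, many promoters start transcription in both directions. Where genes stand back to back, both directions give an mRNA. Where the upstream gene points the same way, the opposite direction often gives a short noncoding RNA that the nuclear exosome and the Nrd1-Nab3-Sen1 pathway end and destroy, and some upstream transcripts run along the gene strand and repress the gene, as SRG1 does at SER3. On which strand, and over what stretch of sequence, reads were counted for an identifier was not given in the sources used here. A member's count is therefore the number of 5′ ends listed under that name, which may be its own mRNA, a transcript on the other strand or a neighbour's RNA, and these were not told apart.

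Members made up 7.08% of the tandem identifiers (188 of 2657, exact Clopper-Pearson 95% interval 6.13 to 8.12%). Among the 2838 identifiers with a divergent neighbour by name, 1028 met the same count minimum (36.2%, 34.5 to 38.0%). Of the tandem identifiers, 1265 (47.6%) were at 0 in all 3 tables, 404 had some counts but under 10 everywhere, 543 reached 10 counts in 1 table and 257 in 2 tables. The minimum cut through a continuous range, since 10 tandem identifiers had a smallest count of 10 and 14 had one of 9. Just inside were ITC1, with 10 counts in CIP/TAP, 10 in TAP and 110 in ribo depletion, and PDA1, with 204, 279 and 10. Just outside were DBP3, with 9 counts in CIP/TAP, 51 in TAP and 11 in ribo depletion, and RAD57, with 32, 9 and 146.

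The name order missed genes that lie between a member and its named neighbour. When every gene in the R64 gene table was placed by its coordinates, 31 of the 188 members had a divergent gene starting within 500 bp upstream (16.5%, 11.5 to 22.6%), against 48 of 2468 tandem identifiers that were not members (1.94%, 1.44 to 2.57%). For 28 of these 31 the divergent gene was the nearest gene upstream, so the label "tandem" does not hold for them, while KRR1, PHO4 and SDD3 had a tandem gene nearer still. The divergent gene was protein-coding in 24 of them, a snoRNA gene in 4, and a tRNA gene, an antisense RNA gene and the signal recognition particle RNA gene SCR1 in 1 each. The nearest gene of any kind upstream was divergent for 37 members (19.7%, 14.3 to 26.1%) and for 125 nonmembers (5.06%, 4.23 to 6.005%). The 37 include DUF1 and other members whose divergent gene starts beyond 500 bp, and the label does not hold for these either.

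Distance to that divergent gene went with the share of members. At 0 to 100 bp, 2 of 9 tandem identifiers were members (22.2%, 2.81 to 60.0%). With a divergent start at 101 to 200 bp, 10 of 20 tandem identifiers were members (50%, 27.2 to 72.8%). At 201 to 300 bp this held for 11 of 23 (47.8%, 26.8 to 69.4%), and at 301 to 400 bp for 8 of 21 (38.1%, 18.1 to 61.6%). At 401 to 500 bp it held for 0 of 6, where the interval reaches 45.9%. At 501 to 600 bp it held for 2 of 17 (11.8%, 1.46 to 36.4%), an interval that overlaps those at 101 to 300 bp. From 601 to 1000 bp the share was 10.1% (9 of 89, 4.73 to 18.3%), from 2001 to 5000 bp 6.02% (72 of 1197, 4.74 to 7.52%) and beyond 5000 bp 5.36% (45 of 839, 3.94 to 7.11%). The shares at 101 to 300 bp thus had intervals above those of every window from 601 bp on, and the windows beyond 600 bp overlapped one another.

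**Figure D1:**
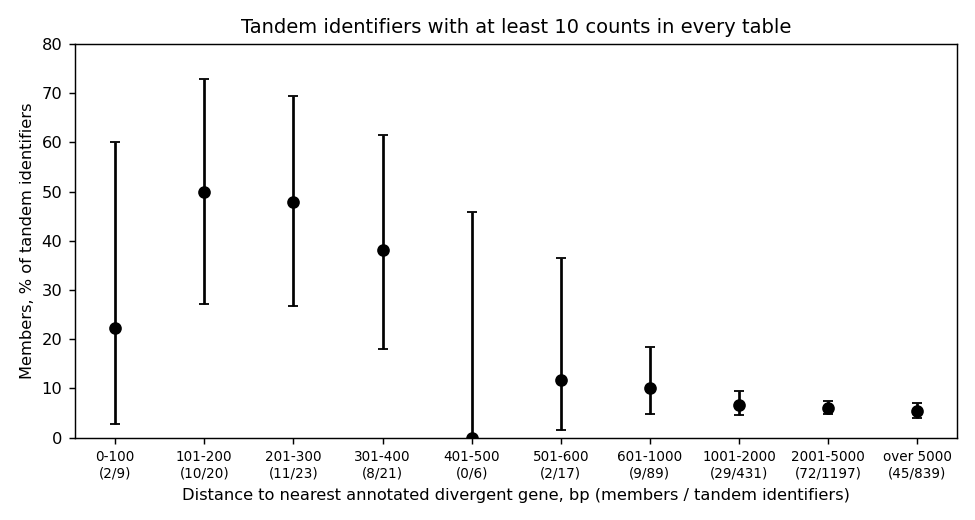
Share of tandem identifiers that were members (y axis, percent) by distance in bp to the nearest annotated divergent gene (x axis, members and tandem identifiers in each window below it); points are shares and bars exact 95% binomial intervals. The shares stand at 50% and 47.8% at 101 to 300 bp and at 5.36% beyond 5000 bp.

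The 31 members with a close divergent gene held 1.98% of all CIP/TAP counts, 2.41% of TAP and 20.3% of ribo depletion. DSC3, which stands beside the snoRNA gene SNR35, alone made up 17.3% of the ribo depletion table. Without DSC3 all other members together held 4.63%, 5.07% and 4.84% of CIP/TAP, TAP and ribo depletion counts. The 157 members with no divergent gene within 500 bp held 2.76%, 2.79% and 1.82%. The median count of the 31 was 223 in CIP/TAP, 340 in TAP and 407 in ribo depletion, while that of the 157 was 78, 52 and 69. Counted identifiers with a divergent neighbour by name had medians of 241, 185 and 333.5. The 157 were thus listed at lower counts than the 1028 divergent identifiers in every table, as medians without a test.

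All 24 protein-coding partners of the first subset had a hyphen in the name. MCM22 (YJR135C, R64 chromosome X, 676059 to 676778, minus strand), a kinetochore protein gene, had 1318 counts in CIP/TAP, 1270 in TAP and 4303 in ribo depletion, and the mitochondrial import chaperone gene TIM8 starts 192 bp away on the other strand. SWD2, a subunit of both COMPASS and the cleavage and polyadenylation factor, had 1508, 1156 and 3280 counts with MCO12 at 222 bp. KRR1, a factor of small ribosomal subunit assembly, had 3829, 2607 and 2807 counts with ADF1 at 204 bp. Each of these 3 identifiers was above 1000 counts in every table.

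OM14, a mitochondrial outer membrane protein gene, had 2966 counts in CIP/TAP against 951 in TAP and 1130 in ribo depletion. SWD1, another COMPASS subunit, had 1546, 1625 and 304 counts with ERP1 at 280 bp, and ABZ1, needed for para-aminobenzoate synthesis, had 1686, 977 and 341 with HUB1 at 170 bp. PNG1, the peptide N-glycanase gene, had 1353, 979 and 117 counts with ERI1 at 191 bp. SWD1, ABZ1 and PNG1 had more counts in each poly(A) library than in ribo depletion, although the ribo depletion table is the deepest.

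Counts listed under both genes of such a pair could be set side by side for 22 of the 24 hyphen partners, the number present in the tables. The partner had at least 10 counts in each table in 19 of the 22 pairs. Of all 5797 identifiers, 5503 have plain names, and 69 of the rest reached 10 counts in each table. The member had more counts than its partner in all 3 tables in 9 pairs, the partner had more in all 3 in 3 pairs, and the order changed between tables in 10. Members were chosen by their counts and partners were not, so this tally favours members and is a description only. SWD2 had 1508, 1156 and 3280 counts where MCO12 had 235, 153 and 72. IAI11 had 37, 20 and 18 counts where CMC2, 54 bp away, had 4114, 1826 and 8087. PRE6, a proteasome core subunit, had 149, 30 and 3703 counts where YOL038C-A had 2822, 1745 and 4198. MRPL28, a mitochondrial ribosomal protein gene, had 76, 242 and 113 counts where CMI8 had 1261, 1096 and 20710.

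Among the 157 members with no divergent gene within 500 bp, DUF1 stood far above the others. DUF1 (YOL087C, chromosome XV, 155287 to 158637, minus strand), which encodes a ubiquitin-binding protein, had 7162 counts in CIP/TAP, 7185 in TAP and 13740 in ribo depletion. Its named neighbour is the alcohol dehydrogenase gene ADH1, and MHF1, a histone-fold gene on the other strand, starts 535 bp upstream, just beyond the 500 bp limit. MHF1 is the nearest gene upstream, so DUF1 is not tandem by position. DUF1 was the highest of the 157 in each table.

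The next members by their smallest CPM (counts scaled to an equal total) had no divergent gene within 1000 bp. CWH43 (YCR017C, chromosome III, 144773 to 147634, minus strand), which remodels the lipid of membrane anchors, had 737 counts in CIP/TAP, 714 in TAP and 2815 in ribo depletion. The tandem gene SRD1 ends 603 bp upstream, and the nearest divergent gene, a tRNA gene, lies 2285 bp away. RRB1 (YMR131C, chromosome XIII, 533163 to 534698, minus strand), the assembly chaperone of a large subunit ribosomal protein, had 675, 519 and 2498 counts, with JLP2 245 bp upstream. In CPM, RRB1 had 615.1 in CIP/TAP, 600.3 in TAP and 885.4 in ribo depletion, so that its 3 values lay closer together than its counts.

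TVP15 (YDR100W, chromosome IV, 655013 to 655444, plus strand), a Golgi membrane protein gene, had 864 counts in CIP/TAP, 532 in TAP and 1155 in ribo depletion, 584 bp from the 14-3-3 gene BMH2. PBS2 (YJL128C, chromosome X, 178097 to 180103, minus strand), the MAP kinase kinase of the osmotic stress pathway, had 498, 430 and 940 counts, with a gap of 1447 bp to the next gene upstream and none divergent for 4397 bp. ACT1 (YFL039C, chromosome VI, 53260 to 54696, minus strand), the actin gene, had 1339, 1016 and 907 counts, 669 bp from the Rab GTPase gene YPT1. In CPM, ACT1 had 1220.1 in CIP/TAP and 1175.2 in TAP, against 321.5 in ribo depletion. ACT1 was the only 1 of these 6 with its highest count in a poly(A) library.

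MVB12, a subunit of the ESCRT-I sorting complex, had 548 counts in CIP/TAP, 589 in TAP and 831 in ribo depletion. FAR10, which acts in recovery from pheromone arrest, had 301, 490 and 885, and VPS35, a retromer subunit, had 435, 231 and 851 with the inositol synthesis gene INO1 396 bp upstream. HAL5, a protein kinase gene of salt tolerance, had 244, 219 and 1666. LPP1, a lipid phosphate phosphatase gene, had 201, 309 and 1369. POL1, the catalytic subunit of DNA polymerase alpha, had 328, 229 and 441 beside the transcription factor gene MET4. The first 10 by smallest CPM, DUF1 to HAL5, held 42.3% of the CIP/TAP counts of the 157, 49.4% of TAP and 51.1% of ribo depletion. The ranking orders counts of 5′ ends and is not a level per gene length.

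**Figure D2:**
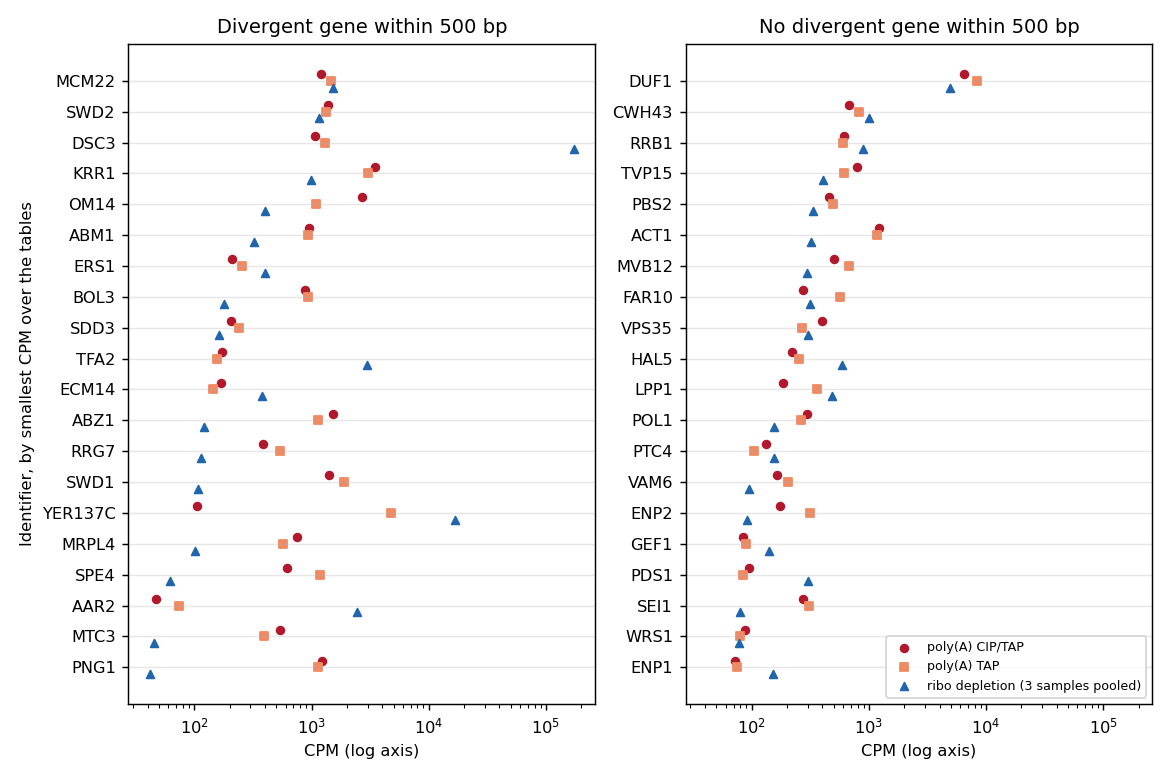
CPM (x axis, log scale) in poly(A) CIP/TAP, poly(A) TAP and the pooled ribo depletion table for the 20 members with the largest smallest CPM in each subset (y axis): those with a divergent gene within 500 bp on the left and those with none on the right. DSC3 and YER137C reach far to the right in ribo depletion, and DUF1 stands apart among those with no close divergent gene.

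The gap to the tandem gene upstream had a weak relation to membership once close divergent genes were set aside. The share of members was 3.24% at gaps of 201 to 300 bp (19 of 586, 1.96 to 5.02%) and 5.21% at 301 to 400 bp (28 of 537, 3.49 to 7.45%). It was 8.42% at 501 to 700 bp (32 of 380, 5.83 to 11.7%), an interval above that of 201 to 300 bp, and 8.24% beyond 1500 bp (7 of 85, 3.38 to 16.2%). Gaps of up to 200 bp, too, had a share of 8.84% (16 of 181, 5.14 to 13.96%), so the share did not follow the gap in 1 direction. HOM2, which makes an amino acid precursor, was a member with 24 bp to the next tandem gene and 69, 56 and 43 counts in CIP/TAP, TAP and ribo depletion. ORC2, a subunit of the origin recognition complex, was a member with a gap of 2272 bp and 69, 12 and 203 counts.

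**Figure D3:**
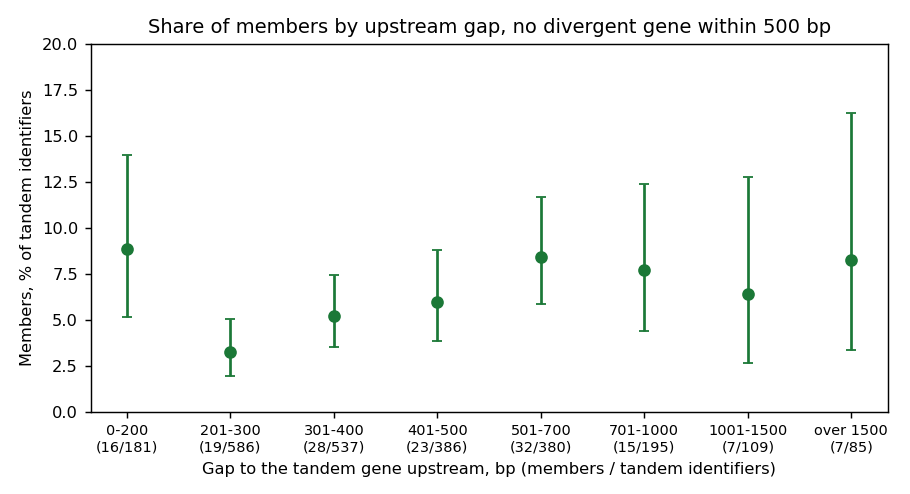
Share of tandem identifiers that were members (y axis, percent) by gap in bp to the tandem gene upstream (x axis), for identifiers with no divergent gene within 500 bp and a tandem nearest gene; points are shares and bars exact 95% binomial intervals. The lowest share is 3.24% at 201 to 300 bp, and gaps of up to 200 bp and of 501 to 700 bp stand at 8.84% and 8.42%.

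Some other features of position overlapped those of nonmembers and some did not. The named neighbour itself had at least 10 counts in every table for 31 of the 157 members (19.7%, 13.8 to 26.8%) and for 512 of 2468 nonmembers (20.7%, 19.2 to 22.4%). The downstream gene was convergent for 49.7% of the 157 (41.6 to 57.8%) and for 50.7% of nonmembers (48.7 to 52.7%). The median gene length was 1413 bp for the 157 and 1293 bp for nonmembers, and the median gap upstream was 444 bp and 384 bp. The W strand held 40.8% of the 157 (33.0 to 48.9%) and 51.5% of nonmembers (49.5 to 53.5%), intervals that do not overlap. Members were spread over all 16 nuclear chromosomes, from 2.48% of the tandem identifiers on chromosome V (3 of 121, 0.514 to 7.07%) to 12.4% on chromosome IX (11 of 89, 6.33 to 21.0%), and these intervals overlap.

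CIP/TAP was compared with TAP to see which 5′ ends depend on uncapped phosphates, since CIP treatment leaves mostly capped ends to ligate. Ratios are log2 of scaled counts, an identifier was measured when its summed count over the pair was at least 50, and a 2-fold ratio counted as higher or lower. Of 172 members measured, 40 were higher in CIP/TAP and 19 lower (23.3% and 11.0%), where 22.2% of all 1679 measured identifiers were higher and 15.6% lower. This background was not held to 10 counts in each table, as the members were. Among divergent identifiers by name that met the members' minimum, 1009 were measured. Of these, 15.3% were higher and 9.61% lower, and the difference from the members was not tested. The members' median was 0.20 (order-statistic 95% interval 0.00 to 0.37), beside 0.16 for all measured identifiers. It was −0.0066 with upper-quartile scaling, which moved the median of all identifiers by −0.20. Among the 74 members with at least 200 counts, 9 were higher and 5 lower (12.2% and 6.76%), where 13.5% and 5.4% of all 908 identifiers at that minimum were.

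The lowest ratios belonged to members beside RNA polymerase III genes. YER137C, next to SCR1, had 116 counts in CIP/TAP against 4094 in TAP, and TGL2, 178 bp from a tRNA gene, had 14 against 386. Among the 157 members without a close divergent gene, 37 of 141 measured were higher (26.2%) and 14 lower (9.93%). Of all measured identifiers, 22.2% were higher and 15.6% lower. The lowest ratio among the 157 was −2.76. RRN10, a subunit of the polymerase I upstream activating factor, was lowest of these with at least 200 counts, at 85 counts in CIP/TAP against 227 in TAP (log2 −1.60, 95% interval −1.98 to −1.24). BUL2, a ubiquitin ligase adaptor, had 70 against 132 (−1.09, −1.54 to −0.67).

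Among members with at least 200 counts, DUG3, a glutathione degradation gene, was highest at 238 counts in CIP/TAP against 23 in TAP (3.16, 2.57 to 3.87). HPM1, a histidine methyltransferase of a ribosomal protein, had 281 against 55 (2.16, 1.75 to 2.61), and DRE2, of cytosolic iron-sulfur cluster assembly, had 335 against 68 (2.11, 1.74 to 2.52). YNR048W followed at 272 against 58 (2.04, 1.63 to 2.48) and SDO1, a factor of large ribosomal subunit maturation, at 732 against 190 (1.76, 1.53 to 2.00). None of these has a divergent gene within 500 bp, which held for 51 of all 74 members at that minimum. OM14 came next at 2966 against 951 (1.46, 1.35 to 1.56) and has COQ21 divergent at 311 bp. In the leading members DUF1, CWH43, RRB1, PBS2 and ACT1 the ratio lay between −0.19 and 0.21, and in TVP15 it was 0.52, all within 2-fold.

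**Figure D4:**
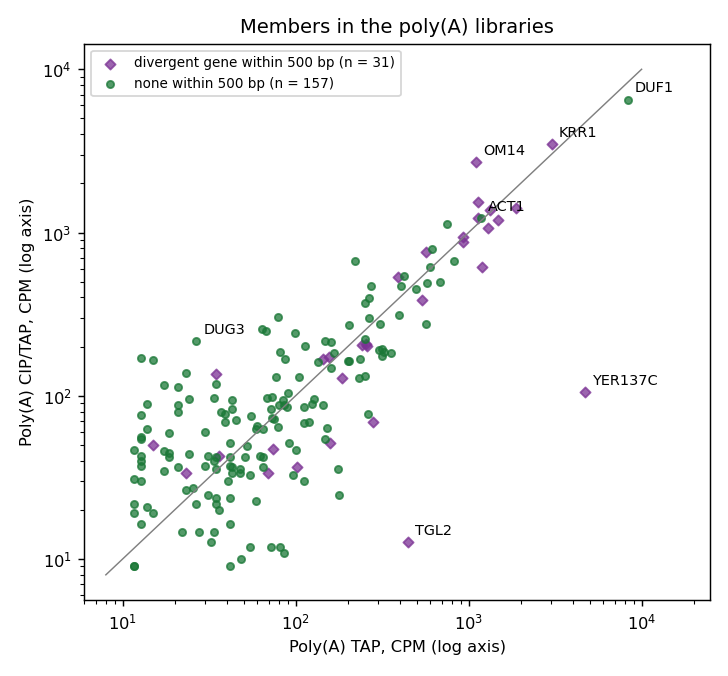
CPM in poly(A) CIP/TAP (y axis, log scale) against poly(A) TAP (x axis, log scale) for the 188 members; diamonds have a divergent gene within 500 bp, circles have none, and the line marks equal values. YER137C and TGL2 lie far below the line and DUG3 above it.

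TAP was compared with ribo depletion to see which 5′ ends differ between RNA with a poly(A) tail and RNA freed of ribosomal RNA. Enzyme treatment may differ as well, and selection and treatment cannot be told apart. Of 170 members measured, 56 were higher in TAP and 60 lower (32.9% and 35.3%), where 31.9% of all 1646 measured identifiers were higher and 38.0% lower. Of 1001 measured divergent identifiers that met the members' count minimum, 26.7% were higher and 35.0% lower. With total counts as the scale, which moved the median of all identifiers by 1.28, the members split into 90 higher and 36 lower, so the balance rests on the scaling. The members' median was −0.14 (−0.52 to 0.34), and −1.03 among the 94 with at least 200 counts. Of these 94, 26 were higher and 47 lower (27.7% and 50%), beside 20.1% and 47.2% of all 1023 identifiers at that minimum.

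PDA1, the E1 alpha subunit of pyruvate dehydrogenase, was highest with 279 counts in TAP against 10 in ribo depletion (5.16, 4.32 to 6.30). IPI1, of pre-60S ribosome maturation, had 649 against 55 (3.97, 3.58 to 4.41), TPK3, a catalytic subunit of protein kinase A, had 235 against 21 (3.88, 3.26 to 4.62), and TIF5, the translation initiation factor eIF5, had 344 against 40 (3.51, 3.05 to 4.04). PHO4, the phosphate-response transcription factor, had 224 against 30 (3.30, 2.77 to 3.92) with YFR035W-A divergent at 301 bp. PNG1, with ERI1 close by, stood between TIF5 and PHO4 at 3.48 (3.21 to 3.78).

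Of the 4 members with a divergent snoRNA gene within 500 bp, DSC3, AAR2 and TFA2 were among the lowest at −8.34, −6.31 and −5.52, and CUE5 stood at −2.64. PRE6, with YOL038C-A divergent at 315 bp, had 30 counts in TAP against 3703 in ribo depletion (−6.50, −7.10 to −6.01). Among members with none within 500 bp, DUG3 was lowest at 23 counts in TAP against 3883 in ribo depletion (−6.95, −7.64 to −6.39). GID10, a substrate receptor of the GID ubiquitin ligase, had 15 against 1027 (−5.63, −6.52 to −4.95).

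CIP/TAP against ribo depletion uses the same ribo depletion table, and its values are given beside the others for that reason. Of 178 members measured, 63 were higher in CIP/TAP and 56 lower (35.4% and 31.5%), beside 36.4% higher and 35.6% lower among all 1700 measured identifiers. Of 1014 measured divergent identifiers that met the members' count minimum, 30.8% were higher and 32.3% lower. The members' median was 0.06 (−0.29 to 0.55). With total counts as the scale, which moved the median of all identifiers by 1.05, the members split into 93 higher and 32 lower. At a minimum of 200 counts, 34 of 106 members were higher and 42 lower (32.1% and 39.6%), beside 25.1% and 42.8% of all 1077 identifiers. DRE2 was highest with 335 counts in CIP/TAP against 12 in ribo depletion (5.06, 4.29 to 6.08), followed by TPK3 at 518 against 21 (4.90, 4.31 to 5.64) and IPI1 at 1229 against 55 (4.78, 4.40 to 5.21). PDA1 stood at 204 against 10 (4.59, 3.75 to 5.74). Below DSC3, YER137C, AAR2 and TFA2, the lowest were UME1, a subunit of a histone deacetylase complex, at 10 against 421 (−5.02, −6.16 to −4.19), and MET31, a regulator of sulfur amino acid genes, at 11 against 307 (−4.43, −5.51 to −3.63). DUG3 stood at −3.72 (−3.91 to −3.53) with 238 against 3883.

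**Figure D5:**
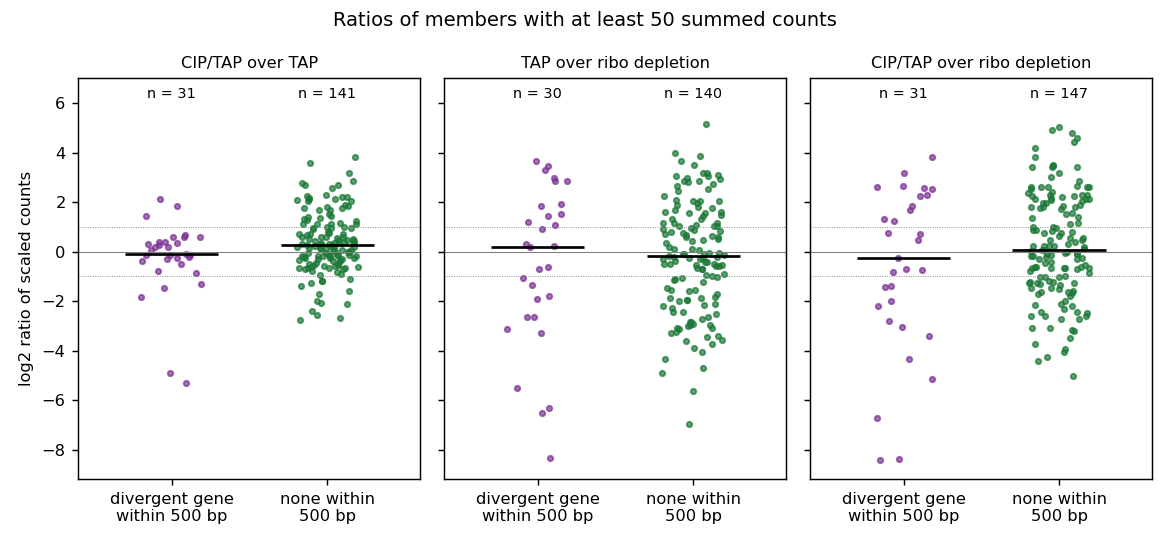
Log2 ratios (y axis) of members with at least 50 summed counts, split by whether a divergent gene lies within 500 bp (x axis), for CIP/TAP over TAP, TAP over ribo depletion and CIP/TAP over ribo depletion; each point is a member, horizontal bars are medians and dotted lines mark 2-fold. Medians lie between −0.26 and 0.26, and the spread is wider against ribo depletion than between the poly(A) libraries.

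Agreement between tables was lower for members than for divergent identifiers that met the same minimum. Spearman's rho of counts between CIP/TAP and TAP was 0.70 across the 188 members, 0.64 across the 157 and 0.88 across the 1028 divergent identifiers. Between TAP and ribo depletion it was 0.35, 0.22 and 0.65. These describe identifiers that share libraries and are not independent replicates, and the members had lower counts. The part of depth in this difference was not tested.

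Gene lists were read for the identifiers with a tandem neighbour, beside the 7.08% of all tandem identifiers that were members. None of 55 tandem genes for cytosolic ribosomal proteins was a member. Read as up to 3 of 55, this 0 allows a share of up to 5.45% (exact Clopper-Pearson upper limit 6.49%). Of the 55, 39 were at 0 in all 3 tables, beside 47.6% of all tandem identifiers. Whether reads shared by near-identical gene copies were counted was not given, and the cause of these 0 counts was not tested. Lists for cryptic transcription and chromatin (16 tandem), glycolysis and fermentation (12), TCA cycle (10), ergosterol synthesis (13) and core histones (1) held 0 members. In that order their exact upper limits were 20.6%, 26.5%, 30.8%, 24.7% and 97.5%, all above 7.08%. Mitochondrial ribosomal proteins had 2 of 30 (MRPL4 and MRPL28, both with a divergent gene within 500 bp), translation factors 2 of 25 (TIF5, and GCD14, a subunit of a tRNA methyltransferase), amino acid synthesis 3 of 44 (ARO1, HOM2 and MET31), stress and heat shock 1 of 17 (TPS2) and RNA decay and termination 1 of 17 (RRP42, an exosome subunit).

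Proteasome genes had 4 members of 14 tandem identifiers (28.6%), beside 7.08% of all tandem identifiers, a difference that was not tested. RPN2, a subunit of the regulatory particle, had 141, 202 and 199 counts in CIP/TAP, TAP and ribo depletion, and RPT3, an ATPase of its base, had 13, 62 and 102. PRE8, a core subunit, had 47, 11 and 118, and PRE6 had YOL038C-A divergent at 315 bp. Against ribo depletion, 3 of the 4 were at least 2-fold lower in CIP/TAP and 0 were higher, with a median of −1.81, beside 35.6% lower, 36.4% higher and a median of 0.02 for all measured identifiers. PRE8 passed at −1.01, and with upper-quartile scaling or total counts it stood at −0.93 or 0.04, which left 2 lower. In CIP/TAP over TAP, 2 of the 4 were higher and 1 lower, beside 22.2% and 15.6%.

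In the list for H2A.Z, SWR1 and INO80, the subject of the series, 2 of 10 tandem genes were members (20%). Of all tandem identifiers, 7.08% were. ARP5, an actin-related subunit of INO80, had 97 counts in CIP/TAP, 18 in TAP and 35 in ribo depletion, and NAP1, a histone chaperone, had 61, 11 and 12. Their log2 ratios of CIP/TAP over TAP were 2.21 (1.51 to 3.06) and 2.24 (1.35 to 3.36), so both counted as higher. The same call was made for 22.2% of all 1679 measured identifiers and 23.3% of measured members. Both ratios rest on TAP counts of 18 and 11, close to the minimum of 10. With 2 genes, whether the list differs from this background was not tested.

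Genes known for upstream noncoding transcription were not among the members. Of 10 such genes, 4 have a tandem neighbour by name, and the others are outside the rule. For these 4 the exact upper limit of the share of members was 60.2%, above the 7.08% of all tandem identifiers. Whether the list differs from that share was not tested. SER3, FLO11 and URA2 were at 0 in all 3 tables, and IMD2 had 0 counts in CIP/TAP, 0 in TAP and 12 in ribo depletion. Of the genes on the list with a divergent neighbour by name, URA8 had 30, 57 and 2 counts and ADH1 had 0, 9 and 7. ADE12 had 0, 0 and 6, and NDC80, IME1 and ADH3 were at 0 in all 3 tables.

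Annotated antisense RNAs lay within 1000 bp upstream of 4 members, and the share among nonmembers was not counted. PDE1, a cyclic AMP phosphodiesterase gene, had 75 counts in CIP/TAP, 97 in TAP and 1416 in ribo depletion, with RME3 on the other strand at 639 bp. COX13, a cytochrome c oxidase subunit gene, had 40, 18 and 14 counts, with RME2, the antisense RNA of IME4, at 687 bp. GYP5, a Rab GTPase activator downstream of GAL4, had 37, 60 and 123 counts, with the antisense RNA gene YNCP0002W at 208 bp. TUB3, an alpha-tubulin gene whose named neighbour is PHO84, had 71, 68 and 14 counts and overlaps the antisense RNA gene YNCM0001W. PDE1 was lower in TAP than in ribo depletion (−3.44, −3.76 to −3.15) and TUB3 was higher (2.66, 1.86 to 3.65). GYP5 was within 2-fold at −0.61 (−1.08 to −0.16). COX13, with 32 counts over both tables, was below the minimum of 50 for a ratio.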

How the data were processed

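The series holds 17 samples, of which the 5 SMORE-seq samples were used. The 12 chromatin immunoprecipitation and MNase samples were not analysed here. The authors deposited raw counts as whole numbers for each gene identifier, per the file headers and values. For the 3 samples of ribo depletion there is 1 table; the way it was pooled was not given in the sources used here. Among tools, the submitters' processing notes name bcl2fastq, BWA 0.6.2, bedtools, featureCounts and sacCer3, with no role or order.

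Members and gene lists were chosen with earlier results of these data known. Neighbours by position came from the RefSeq R64 gene table (5794 of 5797 identifiers matched, all 188 members), with strand from the systematic names, RNA genes included. Each pair of tables was scaled over all identifiers with TMM factors (edgeR 4.0.16, R 4.3.3). The log2 ratio was taken of counts plus 0.5 over the scaled library size, with a Clopper-Pearson 95% interval on the summed count (scipy 1.17.1, Python 3.11.15). No test between groups was run. Medians carry order-statistic 95% intervals. Reads had no molecular identifiers. A count of 0 allows up to 3 counts, or 2.73, 3.47 and 1.06 CPM in CIP/TAP, TAP and ribo depletion. The ratio step was tested on simulated counts with 200 changed identifiers. Apart from these, the simulated tables shared the same profile with Poisson error. The simulation therefore does not check the scaling between real tables of unlike make-up. Alternatives were other scalings, an added count of 5, other count minimums and members by position.

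The genes named were the members with the largest smallest CPM, the extreme ratios with at least 200 counts, those at the count minimum, members with a close divergent gene, the extreme gaps and the members of the lists. Several of these groups are summarised, and nonmembers, partners, the antisense RNA group and the lowest ratios among members without a close divergent gene were named after their values were seen. The planned search for promoter motifs was not run because no sequence was at hand. Near-identical copies can share reads, which concerns ENA2 and SOR1 among the members.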

Additional observations from a re-analysis of the deposited data

How the results depend on the processing

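Of 70 values recomputed under other settings, 58 moved by less than their interval or less than 1.5 times; of these, the median of TAP over ribo depletion was 0.23 with upper-quartile scaling, against a main interval that spans 0. The number of members was 234 with at least 5 counts in each table, 127 with at least 20, 152 with at least 10 CPM, 202 with hyphen names kept in the order and 157 without close divergent genes, a setting chosen after seeing the data. By R64 position it was 165, of which 150 were among the 188. A divergent gene within 1000 bp was found for 42 members. With upper-quartile scaling the median of CIP/TAP over TAP turned to −0.0066. With total counts, TAP over ribo depletion had a median of 1.15 with 90 higher and 36 lower, and CIP/TAP over ribo depletion a median of 1.11 with 32 lower. With at least 200 counts, CIP/TAP over TAP had 9 higher and 5 lower. The same minimum gave TAP over ribo depletion a median of −1.03 with 26 higher, and CIP/TAP over ribo depletion −0.54 with 34 higher. Fewer identifiers pass that minimum; the cause was not tested. Total counts include DSC3, at 17.3% of the ribo depletion table. No paired analysis was possible because each poly(A) group has 1 library and the ribo depletion samples share 1 table. Intervals do not cover variation between cultures.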

Other observations

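Members were more often on the C strand than other tandem identifiers. Of the 188, 79 were on the W strand (42.0%, 34.9 to 49.4%), against 1272 of 2468 tandem nonmembers (51.5%, 49.5 to 53.5%). The strand was looked at among several features after the values were known, and the difference was not tested.

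Tandem identifiers that reached 10 counts in only 1 table were 151 for CIP/TAP, 229 for TAP and 163 for ribo depletion. Those that reached it in 2 tables were 122 for CIP/TAP and TAP, 51 for CIP/TAP and ribo depletion and 84 for TAP and ribo depletion.

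Consecutive names were both members in 9 places, and no run was longer than 2. One such pair was MPD2 and DUF1, another SDD3 and the tryptophanyl-tRNA synthetase gene WRS1, and another UGP1, of UDP-glucose synthesis, and TUL1. WRS1 had 96 counts in CIP/TAP, 69 in TAP and 218 in ribo depletion, while SDD3 next to it had 223, 209 and 457.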
